A study of Mus musculus with 4 samples.

Results

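The HIN-200 genes are a cluster of interferon-inducible genes on mouse chromosome 1, and 5 of them were chosen for description: Ifi203, Ifi204, Ifi205, Ifi211 and Aim2. They were chosen after Ifi204 and Ifi211 were seen to be higher in T helper type 2 (Th2) cells cultured with SH-2251, so their differences with the compound are given as a description and were not tested. Members were found on the arrays by RefSeq accession among 18539 genes that could be named. A probe filed under an accession that the reference does not list would have been missed. A probe was matched for 4 of the 5 members, with 6 probes in all (3 for Ifi204 and 1 each for Ifi205, Ifi211 and Aim2), and no probe was matched to Ifi203. The set was thus chosen by the SH-2251 minus control differences of Ifi204 and Ifi211, which support nothing here.

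RNA came from splenic CD4 T cells of female C57BL/6J mice and was measured on 4 single-colour Agilent arrays, 1 for each condition. All cells were activated with antibodies to TCR-β and CD28 and kept for 2 days in medium with 10 ng/ml IL-4 and 2.5 ng/ml of IL-2, then for a further 3 days in cytokines, a protocol that drives CD4 T cells to the Th2 state. The study's methods also name an antibody against IFN-γ among the Th2 conditions, which the sample labels do not. The control cells received no SH-2251. The treated cells received it in both phases, at 1 µM while activated and at 1 mM afterwards by the labels, whereas the methods give a nanomolar dose for experiments where no other is stated, so the dose behind these arrays is uncertain. SH-2251 is a thioamide-related small compound that was studied as an inhibitor of interleukin-5 production. Resting cells were collected without further stimulation, and restimulated cells after 4 h on immobilized anti-TCR-β. With 1 culture per condition, no difference has a replicate check. The error given with a log2 difference is the scanner software's own technical estimate for the spots compared, which covers the array measurement and not the spread between cultures. Its median over all genes was 0.20 in the resting comparison. Spots of a repeated probe were averaged and their errors taken as independent. The error of such a probe is therefore smaller than that of a probe with 1 spot, and the 2 should not be compared.

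HIN-200 proteins carry a HIN domain, which binds DNA, and most also carry a PYRIN domain, through which they bind other proteins. Type I and type II interferons induce many of these genes, and they are best known from macrophages and other myeloid cells. AIM2 senses DNA in the cytosol and recruits the adaptor ASC, the product of Pycard, to activate caspase-1. The p204 protein encoded by Ifi204 binds the retinoblastoma protein and other regulators of growth and differentiation, and has also been studied as a DNA sensor.

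The promoter sequences of the family are shown because the genes are named for their response to interferon, and because the windows of some of them are alike. RefSeq promoter windows (GRCm38.p6) were held for 12 of the 14 HIN-200 genes of the reference, and none for Ifi204 or Ifi203-ps. The 250 bases before each start site were searched on both strands for GAAA followed after any 2 bases by GAAA, the core of the interferon-stimulated response element, and for TTCNNNGAA, the core of the gamma-activated site. The patterns were searched separately, and a base could belong to both. A gene was counted if any of its windows held the pattern. The first was found in 9 of the 12 genes, against 936 of all 27025 genes with a window (3.46%). Among the interferon-stimulated genes described further on it was found in 8 of 21 (38.1%). The second was found in 1 of the 12 (8.33%), Ifi202b, against 8.13% of all genes with a window. Of the members, Ifi203, Ifi205 and Ifi211 held the first motif, Aim2 did not, and none of the 4 held the second. A match is only a match of letters, and it says nothing of what binds there. The sequences below run 5′ to 3′ on the strand of the motif, with the motif in capitals. For Ifi209 the closest run is shown, which differs from the pattern by G1T, counted from the first base of the motif. Of 2 runs equally close to the pattern, the one more like the Ifi211 window was taken.
Ifi211 (chr1:173913064-173913093, minus strand): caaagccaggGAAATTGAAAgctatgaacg
Ifi205 (chr1:174031870-174031899, minus strand): ccaggccaggGAAATTGAAAgctatgaaca
Ifi207 (chr1:173741831-173741860, minus strand): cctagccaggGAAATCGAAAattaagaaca
Ifi203 (chr1:173942508-173942537, minus strand): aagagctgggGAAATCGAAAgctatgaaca
Mndal (chr1:173880204-173880233, minus strand): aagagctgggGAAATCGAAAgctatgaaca
Ifi213 (chr1:173599326-173599355, minus strand): cgtctctgagGAAATCGAAAgctatgaacc
Ifi209 (chr1:173630770-173630799, plus strand): aatctctgagTAAATCGAAAgagatgcact

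The Ifi211 motif began 37 bases before the start site and that of Ifi205 134 bases before it. Over the 60 bases around the motif, Ifi205 was identical to Ifi211 at 53 positions (88.3%), Ifi207 at 85.0%, Ifi203 and Mndal at 65.0% each, and Ifi206, Ifi208, Ifi209, Ifi213 and Ifi214 at 51.7% to 56.7%. Ifi202b (38.3%) and Aim2 (18 of the 60 positions), which hold no such motif and were aligned on their closest run, were the least alike. They had 5 and 4 equally close runs, and the one most like Ifi211 was taken, as for Ifi209. These 3 identities are therefore the highest that the tied runs could give. Ifi211 and Ifi205 thus shared nearly the same letters around the motif, at different distances from the start site. The part of these windows in expression was not tested. Ifi203 and Mndal were identical over the 30 bases shown. Whether a member's probe also took up RNA of a relative was not tested, since the probe sequences were not used here.

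Ifi211 and Ifi204 were both higher in the SH-2251 cultures, at rest and after restimulation, and were highest of all in the restimulated SH-2251 cells. Ifi211 was 5.09-fold higher at rest and 18.1-fold higher after restimulation, and Ifi204 4.78-fold and 11.8-fold. Ifi205 and Aim2 were not well above background in any condition.

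The Ifi211 probe gave intensities of 548 in resting control cells, 3055 in resting SH-2251 cells, 729 in restimulated control cells and 15353 in restimulated SH-2251 cells. It was well above background on all 4 arrays. Relative to the 75th percentile of each array, the log2 levels were −0.03, 2.31, 0.55 and 4.72 in the same order, so that both SH-2251 arrays lay above both control arrays. The log2 difference with SH-2251 was 2.35 ± 0.20 (technical SD) at rest and 4.17 ± 0.20 after restimulation. The difference after restimulation exceeded that at rest by 1.83 ± 0.29, or 3.55-fold. Among genes well above background on both arrays of a comparison, Ifi211 stood 13th of 11874 by size of increase at rest and 4th of 11812 after restimulation.

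Ifi204 was read by 3 probes, of which A_51_P408343 was the one well above background on all 4 arrays. Its intensities were 69.1 in resting control cells, 362 in resting SH-2251 cells, 132 in restimulated control cells and 1817 in restimulated SH-2251 cells. The log2 levels were −3.02, −0.76, −1.92 and 1.64, and again neither control array reached the level of an SH-2251 array. The difference was 2.26 ± 0.23 at rest and 3.56 ± 0.21 after restimulation, and the second exceeded the first by 1.31 ± 0.31, or 2.47-fold. These placed Ifi204 17th at rest and 5th after restimulation in the same ranking.

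The other Ifi204 probes were likewise highest in restimulated SH-2251 cells, from intensities nearer the background. Probe A_51_P408346 gave 11.1, 79.6, 35.5 and 447, of which the resting control value was not well above background. With the resting control set at the lowest signal well above background on its array, SH-2251 was at least 3.56-fold higher at rest. After restimulation it was 10.8-fold higher, a log2 difference of 3.43 ± 0.26. Probe A_52_P83479 gave 8.74, 83.6, 12.9 and 404, and neither control value was well above background. For this probe SH-2251 was at least 3.74-fold higher at rest and at least 17.4-fold higher after restimulation. All 3 probes were therefore higher with SH-2251 at rest and after restimulation, and how large a difference each could show depended on its control signal.

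Ifi205, which encodes the protein p205, and Aim2 gave no measurable level. The Ifi205 probe read 4.97, 5.54, 4.65 and 6.55 in resting control, resting SH-2251, restimulated control and restimulated SH-2251 cells. The Aim2 probe read 4.9, 5.46, 4.5 and 4.97. All these values lay under the dimmest probe called well above background, which was at 19.8 to 24.4 depending on the array. No difference with SH-2251 could be given for either gene, and a difference below this limit would not have been seen. Each gene was read by 1 probe, and a probe can stay dim where others of its gene do not, as for Ifi209 further on.

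**Figure D1:**
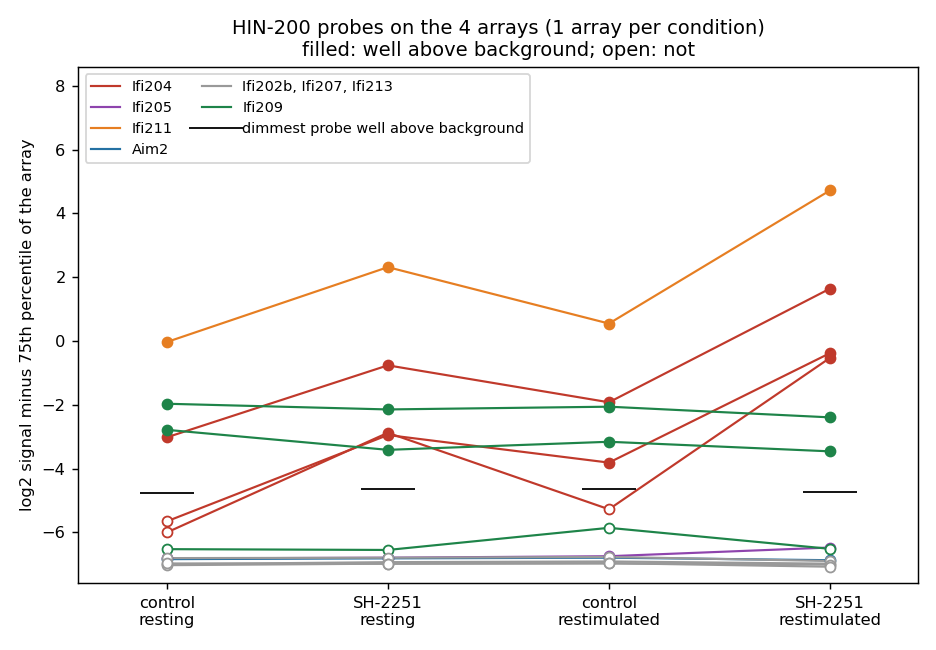
Log2 signal minus the 75th percentile of the array for each of the 13 HIN-200 probes on the 4 arrays, 1 array per condition, so there are no error bars. Filled points were well above background, open points were not, and black bars mark the dimmest probe that was. Ifi211 ran from −0.03 to 4.72 and the brightest Ifi204 probe from −3.02 to 1.64, whereas Ifi205 and Aim2 stayed under the black bars.

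At rest, 2 members could be compared and both were at least 2-fold higher with SH-2251, where 287 of 12684 genes compared (2.26%) were higher by that much. After restimulation both were again higher, beside 334 of 12623 genes (2.65%). The median difference of the 2 genes was 2.30 at rest and 3.87 after restimulation, against medians over all genes of −0.06 in each state. As these differences chose the members, the counts are given beside the background and nothing is read from them.

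**Figure D2:**
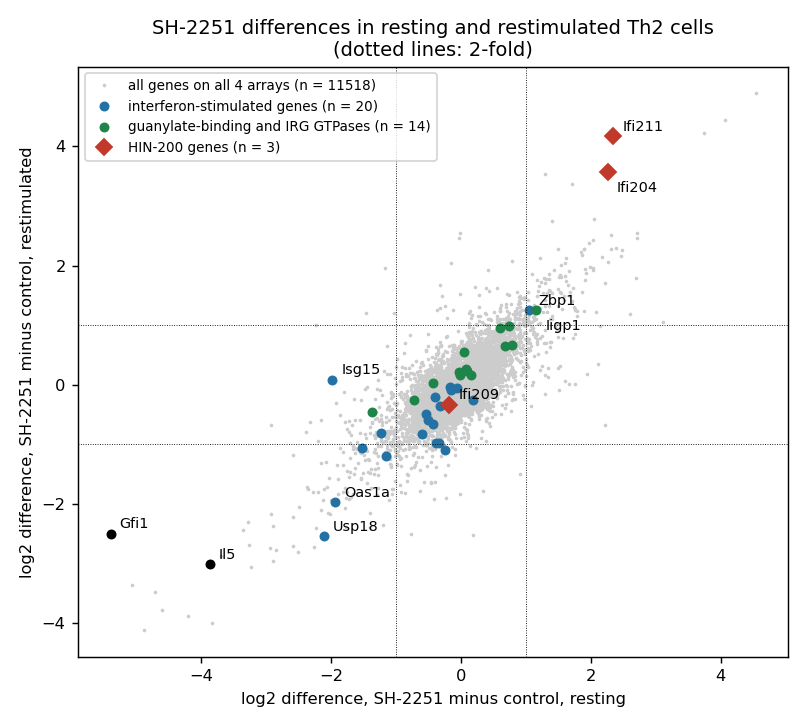
Log2 difference with SH-2251 in resting (x axis) and restimulated cells (y axis) for the 11518 genes well above background on all 4 arrays, with 1 array per condition and dotted lines at 2-fold. Ifi204 and Ifi211 stand at 2.26 and 2.35 on the x axis and at 3.56 and 4.17 on the y axis, Ifi209 lies among the bulk of the genes, and most interferon-stimulated genes lie below 0 in both states.

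Restimulation through the T cell receptor was also followed in the members, by comparing the 4 h and resting arrays within each treatment. In control cells, Ifi204 was 2.14-fold higher after restimulation (log2 difference 1.10 ± 0.24) and Ifi211 1.49-fold higher (0.58 ± 0.20). Thus 1 of the 2 members was at least 2-fold higher, where 924 of 12758 genes (7.24%) were. In SH-2251 cells, Ifi204 and Ifi211 were each 5.30-fold higher after restimulation, with differences of 2.41 ± 0.21 and 2.41 ± 0.20, and 894 of 12613 genes (7.09%) were at least 2-fold higher. Ifi204 moved from place 648 of 11855 in control cells to place 136 of 11767 in SH-2251 cells, and Ifi211 from place 1708 to place 135. These comparisons rest on the same 4 arrays as those of SH-2251 against control, so they are another view of the same values. Under a model-based background correction (normexp) the Ifi204 difference in control cells was 0.73, under 2-fold, and that of probe A_51_P408346 with SH-2251 at rest, a bound of 1.83, became 0.90. For probe A_52_P83479 the bound at rest, 1.90, was also under 2-fold at its lowest among the alternatives, at 0.92.

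The other HIN-200 genes did not share the pattern where they could be measured. A probe was matched for 4 of the other 9 genes of the family in the reference, and 1 of these genes, Ifi209, was detected. Its brighter probe gave intensities of 143, 139, 120 and 111 in resting control, resting SH-2251, restimulated control and restimulated SH-2251 cells. The log2 difference with SH-2251 was −0.18 ± 0.22 at rest and −0.33 ± 0.23 after restimulation. A second Ifi209 probe, with intensities of 81.3, 57.7, 55.9 and 52.9, gave −0.63 ± 0.26 and −0.30 ± 0.27. Both Ifi209 probes therefore stayed within 2-fold, and neither was higher with SH-2251. The third Ifi209 probe and those of Ifi202b, which encodes a family member without a PYRIN domain, Ifi207 and Ifi213 were not well above background on any array. With those of Ifi205 and Aim2 they made up 7 dim probes, whose intensities ranged from 3.97 to 8.61.

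Along chromosome 1, in RefSeq order, Ifi204 and Ifi211 are neighbours but for Mndal, another HIN-200 gene, to which no probe was matched. On the near side of Ifi204 lies Ifi207 and on the far side of Ifi211 lies Ifi203, the first not detected and the second with no matched probe. Beyond the family, Ackr1 and Cadm3 at the Aim2 end and Olfr433 and Olfr432 at the other end were not well above background on any array. Olfr430, an olfactory receptor gene, was detected and had differences of −0.97 ± 0.20 at rest and −0.50 ± 0.21 after restimulation. The 2 higher genes thus lay next to each other among those that could be read, with measured genes of the region on either side that were not higher.

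**Figure D3:**
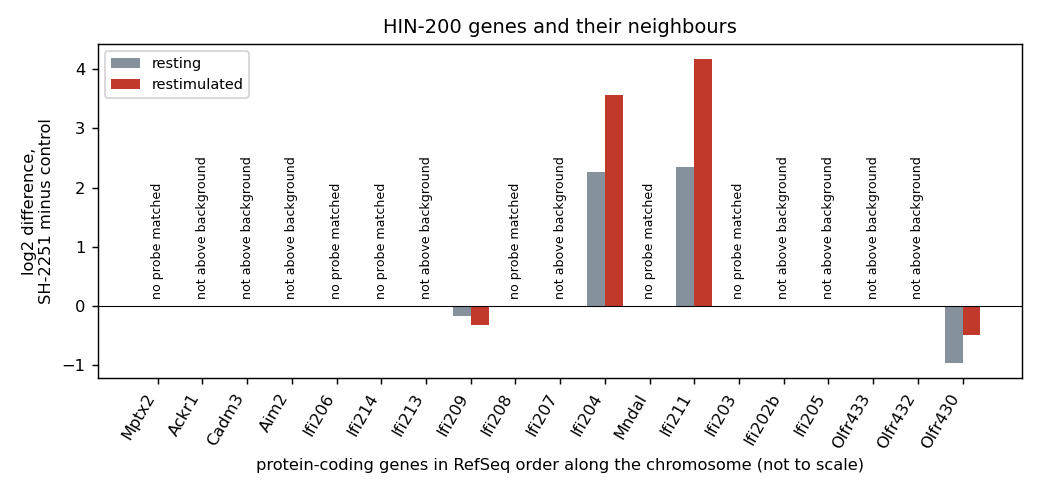
Log2 difference with SH-2251 in resting (grey) and restimulated (red) cells for the protein-coding genes of the HIN-200 cluster and 3 neighbours on either side, in RefSeq order and not to scale, from 1 array per condition without error bars. Bars are drawn for Ifi204 (2.26 and 3.56), Ifi211 (2.35 and 4.17), Ifi209 (−0.18 and −0.33) and Olfr430 (−0.97 and −0.50), and the text marks genes with no matched probe or none above background.

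Interferon-stimulated genes as a group did not move with Ifi204 and Ifi211. The list holds 30 antiviral effectors and regulators known to be induced by interferon, of which 28 were on the array and 25 could be compared in each state. At rest 1 was at least 2-fold higher with SH-2251 and 9 were at least 2-fold lower, where 368 of all genes (2.90%) were lower by that much, and the median difference was −0.54. After restimulation the counts were again 1 and 9, beside 2.78% of all genes lower, with a median of −0.81. Of the lower genes, 7 were lower in both states, namely Dhx58, Ifit1, Oas1a, Oasl1, Rsad2, Rtp4 and Usp18. The number lower depends on dim probes and on the background correction, since with normexp it was 3 at rest and 2 after restimulation. Once spots of uneven background were left out of that fit, the resting count stayed within 1.5-fold of 9, and that after restimulation was again 2.

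Among the lower genes, Usp18, which restrains signalling from the type I interferon receptor, gave intensities of 400 and 102 at rest and 377 and 75.5 after restimulation, in control and SH-2251 cells. Its log2 differences were −2.11 ± 0.22 and −2.54 ± 0.22. Oas1a, an enzyme that activates RNase L in response to double-stranded RNA, gave 99.7 and 28.5 at rest and 97.2 and 28.9 after restimulation, with differences of −1.94 ± 0.34 and −1.97 ± 0.32. Both genes were therefore lower in the same arrays in which Ifi204 and Ifi211 were higher, and a link between them was not tested. With normexp the Oas1a difference at rest was 0.13, and −0.90 once spots of uneven background were left out of that fit. Oasl1 was at least 4.29-fold lower at rest and at least 8.98-fold lower after restimulation, as its SH-2251 signals were not well above background. Isg15, a ubiquitin-like protein, differed between the states, with −1.98 ± 0.21 at rest and 0.09 ± 0.20 after restimulation, and the difference between the states has no replicate check. Irf7, a transcription factor of the interferon response, had −0.34 ± 0.21 and −0.97 ± 0.21. Zbp1, a sensor of Z-form nucleic acid, was the gene of the list that was higher, with 1.05 ± 0.20 and 1.25 ± 0.20.

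The guanylate-binding proteins and immunity-related GTPases, which are induced mainly by IFN-γ and act against intracellular pathogens, were mostly within 2-fold. All 14 could be compared. At rest Iigp1 was higher and Tgtp1 lower by at least 2-fold, where 2.26% of all genes were higher and 2.90% lower. After restimulation Iigp1 alone was higher, beside 2.65% of all genes higher and 2.78% lower. The medians were 0.08 and 0.25. Iigp1 had differences of 1.16 ± 0.22 and 1.25 ± 0.21, and Tgtp1 −1.36 ± 0.20 and −0.46 ± 0.20. Gbp4, Gbp5 and Gbp6 were under 2-fold in both states, with 0.79, 0.61 and 0.74 at rest and 0.67, 0.96 and 0.99 after restimulation. All 14 differences were smaller than those of Ifi204 and Ifi211 in the same arrays. Those 2 genes were chosen for their rise with SH-2251, so nothing is read from this.

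Receptors and transcription factors of interferon signalling were mostly within 2-fold between control and SH-2251 cells. Of 18 genes, 16 could be compared at rest and 17 after restimulation, with medians of −0.02 and −0.13. None was at least 2-fold higher, beside 2.26% and 2.65% of all genes. At least 2-fold lower were 3 and 2, beside 2.90% and 2.78% of all genes. Irf9, a transcription factor that carries the type I interferon signal to the nucleus, had differences of −0.01 at rest and −0.13 after restimulation, each with a technical SD of 0.20. The receptor chain Ifnar1 had 0.14 and 0.24. The genes lower at rest were Ifngr1, a chain of the IFN-γ receptor, Irf8, a transcription factor, and Socs3, an inhibitor of cytokine signalling, with −1.14, −1.46 and −1.48.

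Among the ligands, Ifng gave intensities of 374 and 298 at rest and 20241 and 7575 after restimulation in control and SH-2251 cells, a difference of −1.64 ± 0.20 after restimulation. Ifnb1 was well above background in restimulated control cells alone, at 57.6, and was at least 3.08-fold lower with SH-2251. The Ifna4 probe did not rise clearly over background in any condition. Ifng and Ifnb1, the listed interferon genes that could be read after restimulation, were thus lower in the SH-2251 cells. Interferon genes outside the list were not examined, and a link to Ifi204 and Ifi211 was not tested.

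Some partners of AIM2 in the inflammasome, among them Pycard and Casp1, were well above background on all 4 arrays although Aim2 itself was not detected by its 1 probe. Il1b and Nlrc4 of the same list were above background on none. Of 10 genes, 6 could be compared at rest and 7 after restimulation, with medians of −0.38 and −0.40. None was at least 2-fold higher, beside 2.26% and 2.65% of all genes. By the same measure 1 and 2 were lower, beside 2.90% and 2.78% of all genes. Casp1, the protease of the complex, had differences of 0.80 ± 0.20 and 0.57 ± 0.20, and Pycard −0.53 ± 0.20 and −0.43 ± 0.20. Il18, a cytokine that caspase-1 matures, had −0.86 ± 0.08 and −1.08 ± 0.09, and Mefv, which encodes pyrin, −1.95 ± 0.28 after restimulation. Nlrp3, another inflammasome sensor, had −1.06 ± 0.36 at rest from intensities of 52.5 and 27.5, and 0.59 with normexp.

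**Figure D4:**
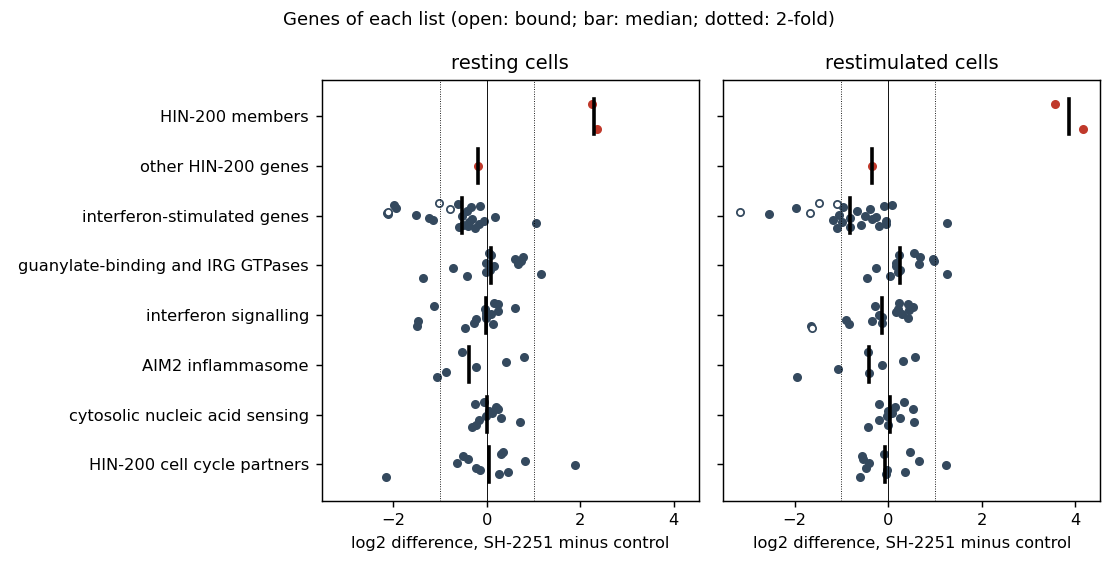
Log2 difference with SH-2251 for each gene of 8 groups in resting (left) and restimulated (right) cells, from 1 array per condition. Each point is a gene, open points are bounds where 1 side was not above background, black bars are medians and dotted lines mark 2-fold. The HIN-200 members have medians of 2.30 and 3.87, and the interferon-stimulated genes of −0.54 and −0.81.

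The genes whose levels followed Ifi204 and Ifi211 most closely were sought among the 11518 genes well above background on all 4 arrays. After each gene was centred on its own mean, likeness was measured as the root mean square distance between log2 levels over the 4 arrays, and 5 genes were named for each. Ifi211 was nearest to Ifi204, at 0.25. Next came Fmnl2, a formin that builds actin filaments, at 0.28, and Cdkn2b, an inhibitor of cyclin-dependent kinases, at 0.48. Stc1, which encodes the secreted hormone stanniocalcin, and Lmna, which encodes nuclear lamins, followed at 0.57 and 0.58. For Ifi211 the order was Ifi204, Fmnl2, Slpi, a secreted protease inhibitor, Cdkn2b and Stc1, and the last of these lay at 0.73. With 4 arrays and no replicates these distances only describe the profiles. Ifi204 and Ifi211 were both chosen for their rise with SH-2251, which favours a short distance between them, so nothing is read from it. The probe of Fmnl2 used here gave differences of 1.71 ± 0.24 at rest and 3.37 ± 0.22 after restimulation, whereas its other probe gave 0.20 ± 0.22 and −0.10 ± 0.22, so the place of Fmnl2 rests on 1 probe.

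Cdkn2b gave intensities of 214 and 1159 at rest and 537 and 3035 after restimulation, in control and SH-2251 cells. Its difference with SH-2251 was 4.94-fold at rest and 4.84-fold after restimulation. Unlike Ifi204 and Ifi211, it was thus no further apart after restimulation, with a difference between the states of −0.03 ± 0.29.

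The arrays were checked against markers of the labelled cells and of others that a spleen preparation can hold. The labels describe CD4 T cells taken from spleen with a magnetic sorter, and the methods a kit that selects naïve CD4+ CD62L+ cells, either of which would remove most cells of the other types. All 6 T cell markers, Cd3d, Cd3e, Cd3g, Cd4, Cd28 and Lck, were well above background on every array, with a summed signal of 203 to 216 times the 75th percentile. Because HIN-200 genes are strongly expressed in myeloid cells, markers of macrophages and monocytes were listed beside them. Of 9 on the array, Csf1r, Cd14, Adgre1 and Ly6c2 were above background on every array, and Lyz2, Itgam, Fcgr1, Mertk and C1qa on none, with a summed signal of 157 in resting SH-2251 cells and 218 to 247 on the others. Nearly all of that sum was Ly6c2, which T cells also express, with log2 levels of 7.27 in resting SH-2251 cells and 7.75 to 7.93 on the others. The 4 markers had a median difference with SH-2251 of −0.31 at rest, and 2 of them were above 0 and 2 below after restimulation. Of 10 dendritic cell markers 7 were above background, Itgax, Siglech and Clec9a on no array, and the sum was 31.3 and 32.9 at rest and 35.5 and 46.6 after restimulation in control and SH-2251 cells. Of 7 B cell markers all but Pax5 were above background, and the sum was 7.26 and 7.80 at rest and 6.49 and 9.02 after restimulation. Dendritic and B cell sums were thus highest in the restimulated SH-2251 cells, as were Ifi204 and Ifi211, and their part in these differences was not tested. After restimulation 3 of the dendritic markers were above 0 and 4 below, with a median of −0.04. Of these, 2 were at least 2-fold higher and none was lower by that much, where 2.65% of all genes were higher. They were Cd74 (1.19 ± 0.20), from which most of the higher sum came, and Zbtb46 (1.53 ± 0.22). Of the 6 B cell markers 5 were above 0, with a median of 0.39, and Ms4a1 (1.21 ± 0.21) was at least 2-fold higher.

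Markers of the remaining types gave smaller sums. For NK cells, with 4 of 6 markers above background on no array, the sum was 0.24 and 0.29 at rest and 0.22 and 0.35 after restimulation in control and SH-2251 cells. For CD8 T cells, with 3 markers of which Gzmk was above background on no array, it was 0.13 and 0.33 and then 0.18 and 0.35. Cd8a had differences of 1.45 ± 0.27 at rest, where 2.26% of all genes were at least 2-fold higher, and 0.97 ± 0.24 after restimulation. No CD8 marker that could be compared was below 0. Eomes was counted in both the NK and the CD8 list. Both sums were higher in the SH-2251 cells, as were Ifi204 and Ifi211, and their part was not tested. The granulocyte and mast cell sum lay between 0.29 and 0.32. In RNA from a whole culture, fewer cells of a type and less RNA per cell cannot be told apart. Of 11 genes of T helper identity, none was at least 2-fold higher with SH-2251, and Il5 and Gfi1 were lower in both states, Il5 by −3.86 and −3.01 and Gfi1, a transcriptional repressor, by −5.39 and −2.49. Il13 was lower at rest, by −1.32, and had −0.57 after restimulation. Gata3, which directs the Th2 program, had −0.17 and −0.03, and Il4 −0.10 and −0.23.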

How the data were processed

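RNA of 4 cultures was hybridised to 4 single-colour arrays, all on 1 slide and in 1 scan. The deposited scanner files hold spot intensity, which the authors obtained with Feature Extraction 10.7.3.1 (background-subtracted processed signal, gProcessedSignal). The deposited series table holds the authors' log2 values, and 99.6% to 99.7% of these lay within 0.01 of the setting used here. Submitters' notes name the build mm9. Each array had 41174 probes, of which 56.0% to 56.7% were well above background, and 77 to 106 outlier spots were left out. The 75th percentiles, subtracted after log2, were intensities of 499 to 614. The number of arrays limits the precision, and the median SD of repeated spots was 0.05 to 0.06.

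Genes were named by the RefSeq accession of the probe (66.1% of probes), and represented by the probe with the highest mean level. Differences needed at least 1 array well above background. A probe not well above background on 1 side was set there at the higher of the lowest signal of that array well above background and its own, and gave a bound (at least N-fold). A gene was counted from 2-fold. Genes named are the HIN-200 genes, 3 neighbours on either side, the 5 nearest profiles to Ifi204 and to Ifi211, defining genes of the lists, and of each list the 3 largest differences per state and bounds from 2-fold. Dhx58, Rtp4, Gata3, Il4, Id2, Rb1 and Ifna4 were added after their values were seen. A defining gene of a list is not reported here by name. Members and lists were chosen with earlier results of these data known. No test was run, as each condition had 1 array and a fit additive in treatment and restimulation would have taken the difference between the states as its error. Alternatives were normexp with an offset of 50 (limma 3.58.1, on median spot signals), quantile normalization, centring on the median, no filter, outlier spots kept, other probe choices, other thresholds and the authors' values. Calculations used Python 3.11.15, pandas 2.3.3 and R 4.3.3, and the code was tested on simulated data.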

Additional observations from a re-analysis of the deposited data

How the results depend on the processing

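No paired analysis was possible because each comparison was made within 1 state or treatment, with 1 array on each side, and gave no test to block. The brightest Ifi204 probe kept its direction under all alternatives, with a range of 1.5 to 2.31 at rest and 2.93 to 3.61 after restimulation, and Ifi211 kept 1.97 to 2.41 and 4.11 to 4.22. The median of the members at rest, after restimulation, and for restimulation in control cells was 1.82, 3.52 and 0.62 with normexp, and 1.84, 3.52 and 0.62 when spots of uneven background were left out. Without a filter or bound, where Ifi205 and Aim2 enter, it was 1.14, 1.92 and 0.32, and 1.36 for restimulation in SH-2251 cells. With the mean of all probes it was 2.52 and 4.04.

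Genes at least 2-fold higher and lower numbered 702 and 162 at rest and 149 and 158 after restimulation with normexp, 123 and 185 and again 149 and 158 without uneven spots, and 623 and 798 and 678 and 950 without a filter. At 1.5-fold they were 776 and 945 and 871 and 902, and at 3-fold 103 and 142 and 102 and 144. Normexp fitted a background of −152 on the resting SH-2251 array, against 7.36 to 8.23 on the others and 7.42 once 12 uneven spots were left out. It turned Nlrp3 (0.59), Oas1a (0.13) and Rsad2 (0.00062) at rest, which were −0.47, −0.90 and −1.08 without those spots. Alternatives for lists were chosen after seeing the data. Interferon-stimulated genes lower by 2-fold were 3 at rest and 2 after restimulation with normexp, 2 after restimulation without uneven spots, and 5 where both arrays had to be above background, with medians after restimulation of −0.57, −0.57 and −0.58. The AIM2 inflammasome median was 0.26 at rest with normexp and −0.13 after restimulation without a filter. The causes were not tested beyond these values. Probes below an intensity of 19.8 to 24.4 have only a bound.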

Other observations

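The 12 genes listed for nucleic acid sensing, a function ascribed to AIM2 and p204, stayed within 2-fold between cells with and without SH-2251. The list holds endosomal receptors such as Tlr7 beside cytosolic genes, and it does not hold every sensor. Zbp1 (1.05 and 1.25) and Oas1a (−1.94 and −1.97), counted above with the interferon-stimulated genes, also respond to nucleic acid and passed 2-fold. The normexp limit given above for Oas1a holds here too. All 12 of the list could be compared, and the medians were 0.01 at rest and 0.04 after restimulation. None was at least 2-fold higher, beside 2.26% and 2.65% of all genes, or lower, beside 2.90% and 2.78%. At such shares a list of 12 would often hold none, so nothing is read from the count. Sting1, the adaptor through which cytosolic DNA induces type I interferon, had differences of −0.06 ± 0.20 and 0.34 ± 0.20. Cgas, the enzyme that makes its ligand, had −0.26 ± 0.20 and −0.19 ± 0.21. Tlr7, an endosomal receptor for RNA, was the gene with the largest increase, 0.72 ± 0.24 and 0.55 ± 0.22, from intensities of 59.0 and 106 at rest and 73.5 and 126 after restimulation.

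Genes of cell cycle and differentiation control whose products bind HIN-200 proteins or act beside them were mostly within 2-fold. Of 12 genes, Id3 was at least 2-fold higher in both states, beside 2.26% and 2.65% of all genes, and Runx2 was at least 2-fold lower at rest, beside 2.90%. The medians were 0.05 and −0.06. Id3, an inhibitor of helix-loop-helix transcription factors, gave intensities of 791 and 3212 at rest and 490 and 1342 after restimulation, in control and SH-2251 cells, or 3.71-fold and 2.35-fold. Id1, of the same family, had differences of 0.82 ± 0.21 and 0.67 ± 0.21, and Id2 −0.64 and −0.42. Runx2, a transcription factor of bone development that p204 is known to bind, had −2.15 ± 0.09 at rest and −0.59 ± 0.08 after restimulation. Rb1, which encodes the retinoblastoma protein, had 0.34 and 0.46.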
